A study of Gallus gallus with 6 samples.

Results

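A set of 150 chicken loci was more abundant in the eyelids of 3 birds than in those of 3 others, in a grouping that did not follow eyelid colour. The birds with high levels were black-eyelid birds 2 and 3 plus light-yellow bird 1, called the 3 high birds here. The birds with low levels, called the 3 low birds, were light-yellow birds 2 and 3 with black-eyelid bird 1. All 6 were Lindian chickens killed at 30 weeks of age, 3 with black and 3 with light-yellow eyelids, and no treatment is given in the labels. Messenger RNA of whole eyelid tissue was sequenced, with 1 library per bird. A locus was a member if it had an Ensembl chicken identifier, a mean of at least 1 FPKM over the 6 birds (a locus's fragments per kilobase of its length, scaled to the size of the library), a lowest level in the 3 high birds above the highest level in the 3 low birds, and a mean difference of at least 1 on the log2(FPKM + 1) scale. Of 11780 Ensembl loci at that level, 163 (1.38%) met these conditions, and the 150 with the largest difference are the members. The members were thus selected on the FPKM of these same 6 libraries, and the difference between the high and the low birds is given as a description, with no test.

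The eyelid is a thin fold of skin over striated muscle, with connective tissue, vessels and glands. Its dark colour is usually made by melanocytes, cells that build melanin from tyrosine inside melanosomes and hand it to keratinocytes. RNA from whole tissue mixes all of these cells, and in such RNA fewer cells of a type and less RNA per cell cannot be told apart. The identifiers are not paired with gene names in the table, and the gene name table used here, of assembly GRCg7b, holds an Ensembl identifier for 0 of its 25635 entries. None of the 150 members could therefore be given a name, a function or a position, and the markers of the eyelid's cell types could not be looked up. The members are described by their place in the order of the difference, from 1 for the largest to 150, and 2 are named by identifier.

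Turned round, the rule held for 148 of the 11780 loci (1.26%). How this compared with the 163 varied with the scaling and with the birds used. The counts were 203 loci and 130 turned round after median-of-ratios rescaling of the libraries, and 184 and 130 after quantile normalization. With 1 bird left out, more loci met the rule turned round without black-eyelid bird 2 (226 and 276), black-eyelid bird 3 (145 and 161) or light-yellow bird 2 (183 and 197). Fewer did without black-eyelid bird 1 (153 and 148), light-yellow bird 1 (247 and 162) or light-yellow bird 3 (259 and 188). Without the condition on size, 1602 loci (13.6%) lay higher in all 3 high birds than in any low bird and 2707 (23.0%) lay lower. The median log2 difference over all 11780 loci was -0.11, high minus low birds, a lean in the direction opposite to the members.

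By the rule, each member was higher in every high bird than in any low bird, and the ratio of mean FPKM, high over low birds, had a median of 2.60. The median FPKM over the 150 members was 20.01 for black-eyelid bird 2, 24.9 for black-eyelid bird 3 and 17.01 for light-yellow bird 1. For black-eyelid bird 1 it was 7.05, for light-yellow bird 2 it was 7.18 and for light-yellow bird 3 it was 8.13. Over all 11780 Ensembl loci the median FPKM was 14.3, 13.3 and 11.5 in the 3 high birds and 14.1, 13.9 and 14.3 in the 3 low birds, in the same order. The typical locus was thus no higher in the high birds. The log2 difference of a member ran from 1.02 to 4.79, with a median of 1.182 and with 75% of the members at 1.35 or less. It reached 1.5 in 19 members, 2 in 9 and 3 in 2.

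**Figure D1:**
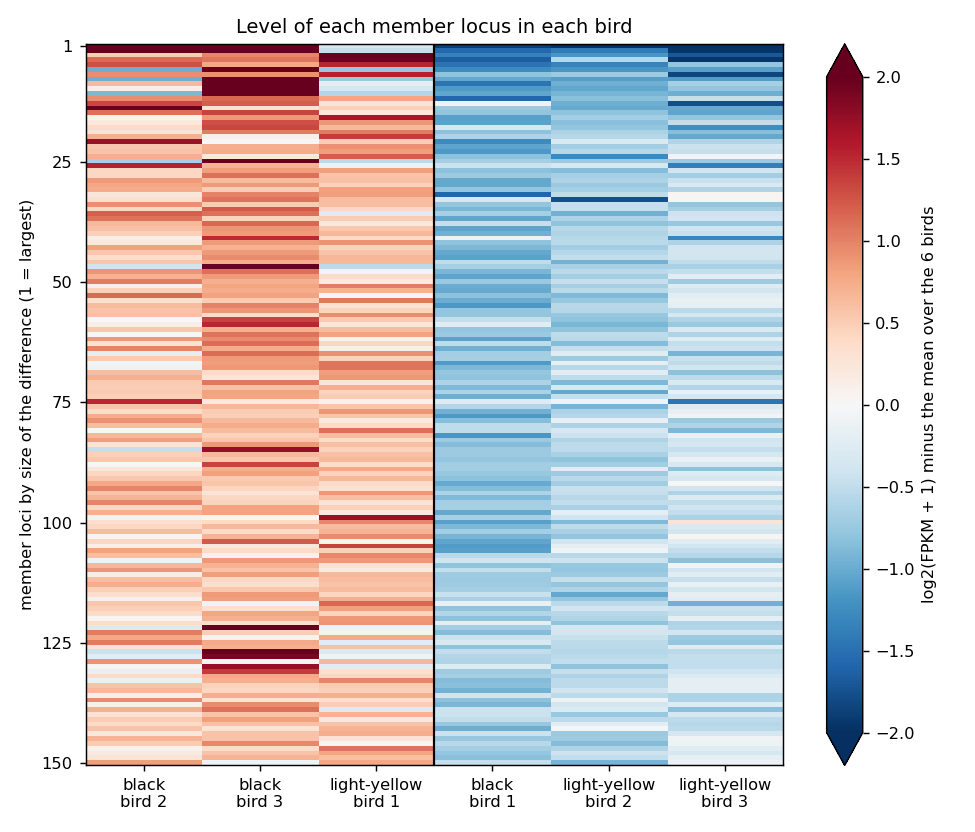
Each row is 1 of the 150 member loci, ordered by the size of the difference, and each column 1 bird, with the 3 high birds left of the vertical line and the 3 low birds right of it. Colour gives log2(FPKM + 1) minus the mean of that locus over the 6 birds. Single dark cells in the column of black-eyelid bird 3 mark loci in which that bird stood far above every other bird.

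The locus with the largest difference, ENSGALG00000004772, is 1018 bases long. Black-eyelid bird 2 had 102 FPKM of it, black-eyelid bird 3 had 113 FPKM and light-yellow bird 1 had 5.29 FPKM, against 1.14 FPKM in black-eyelid bird 1, 0.192 FPKM in light-yellow bird 2 and 0.354 FPKM in light-yellow bird 3. These values rest on 1772, 2255 and 96 reads in the 3 high birds and on 24, 4 and 7 reads in the 3 low birds. The 2 high birds with black eyelids stood far above light-yellow bird 1, which itself was above every low bird. The locus at place 2 had the same order at a lower level, with 23.3, 37.6 and 2.42 FPKM in the high birds against 0.587, 0.788 and 0.208 FPKM in the low birds.

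At place 3 light-yellow bird 1 was the highest of the high birds and not the lowest. Light-yellow bird 1 had 80.1 FPKM there, black-eyelid bird 2 had 16.4 FPKM and black-eyelid bird 3 had 22.8 FPKM, against 3.74, 4.39 and 2.75 FPKM in black-eyelid bird 1, light-yellow bird 2 and light-yellow bird 3. Of all members this one had the widest gap between the lowest high bird and the highest low bird, 1.69 on the log2 scale. Places 4 and 5 held abundant loci in which all 3 high birds lay well above the low birds. The locus at place 4 had 296, 283 and 527 FPKM in black-eyelid birds 2 and 3 and light-yellow bird 1, against 42.5, 90.8 and 34.4 FPKM in black-eyelid bird 1, light-yellow bird 2 and light-yellow bird 3. For the locus at place 5 the levels were 292, 204 and 344 FPKM in the high birds and 42.3, 46.5 and 69.2 FPKM in the low birds, in the same order. The lowest high bird was at 3.12 times the highest low bird in the first of these loci and at 2.96 times in the second.

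Place 7 was taken by a locus of 836 bases. Its level was 1111, 1098 and 1689 FPKM in black-eyelid birds 2 and 3 and light-yellow bird 1, against 333, 350.5 and 163 FPKM in black-eyelid bird 1, light-yellow bird 2 and light-yellow bird 3. The locus at place 15 was similar in level, at 1306, 1558 and 704 FPKM in the high birds against 354, 347 and 293 FPKM in the low birds. At place 12 the 3 high birds were nearly level, at 16.1, 18.7 and 14.5 FPKM, against 2.02, 4.02 and 5.42 FPKM in the low birds. The locus at place 14 was the reverse case, led by black-eyelid bird 2 with 7.604 FPKM, ahead of 1.65 FPKM in black-eyelid bird 3 and 2.04 FPKM in light-yellow bird 1. In the low birds it was at 0.314, 0.0789 and 0.0832 FPKM, from 8, 2 and 2 reads. Every low bird was thus under 1 FPKM, as at places 2 and 88. Such loci reached a mean of 1 FPKM only through the high birds.

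**Figure D2:**
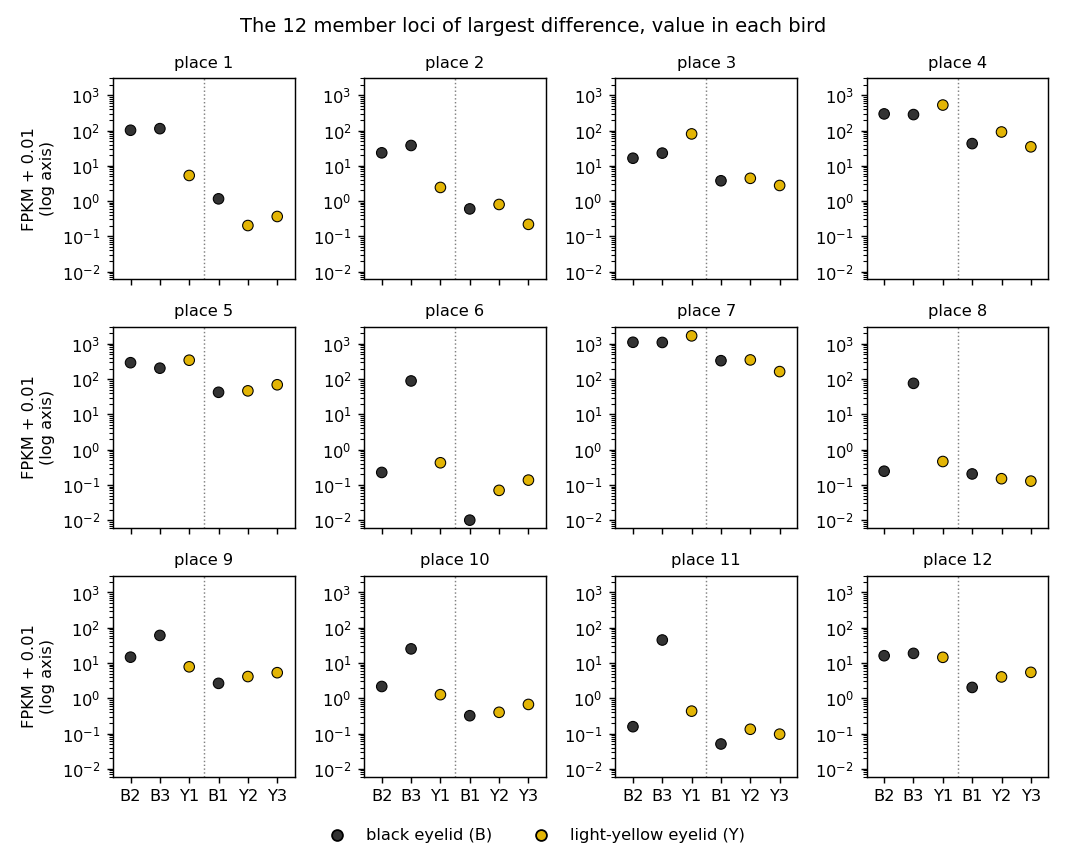
Each panel shows 1 of the 12 member loci of largest difference, with FPKM plus 0.01 on a log axis and 1 point per bird. B is a black and Y a light-yellow eyelid, and the dotted line parts the 3 high birds (left) from the 3 low birds (right). At places 6, 8 and 11 black-eyelid bird 3 stands alone, at 88.7, 75.9 and 44.9 FPKM.

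A minority of the members had 1 bird far above the rest. In 11 members (7.33%) a single bird was at 4 or more times the level of each other bird, and in all 11 that bird was black-eyelid bird 3. Among the 11780 Ensembl loci, 48 (0.407%) had such a bird, and in 33 it was black-eyelid bird 3. The rule used these values, so nothing is read from the 2 shares. In black-eyelid bird 3 the 11 members lay between 4.82 and 88.7 FPKM. In the other high birds their medians were 0.428 FPKM (black-eyelid bird 2) and 0.506 FPKM (light-yellow bird 1), and the median of the highest low bird was 0.210 FPKM. Where every other bird was under 1 FPKM, the locus reached a mean of 1 FPKM only through black-eyelid bird 3, as at places 6, 8, 11 and 25. At place 25 black-eyelid bird 3 had 15.6 FPKM and the other birds 0 to 0.137 FPKM. The gap between the lowest high bird and the highest low bird was 0.011 to 0.479 on the log2 scale, with a median of 0.071.

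For the locus at place 6, black-eyelid bird 3 had 1416 reads, while black-eyelid bird 2 had 3 and light-yellow bird 1 had 6. The low birds had 0, 1 and 2 reads. The locus at place 8 gave black-eyelid bird 3 2600 reads, black-eyelid bird 2 7 reads and light-yellow bird 1 14 reads, against 7, 5 and 4 in the low birds. In 0 of the 11 were the exact Poisson 95% intervals of the lowest high and the highest low bird apart. The rule fixed the order of these birds, so the intervals describe counting depth only and are no test of a difference. Taken alone, black-eyelid bird 2 had an interval above those of all 3 low birds in 2 of the 11, at places 9 and 10, and light-yellow bird 1 in 0. At place 9 black-eyelid bird 2 had 175 reads, black-eyelid bird 3 had 831 and light-yellow bird 1 had 97, against 38, 59 and 72 in black-eyelid bird 1, light-yellow bird 2 and light-yellow bird 3. In the other 9 loci the interval of black-eyelid bird 2 overlapped that of a low bird, as did that of light-yellow bird 1 in all 11. Separate intervals can overlap where counts differ, so the overlap does not show equal levels. Without the 11, the median log2 difference of the other 139 members was 1.17.

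Over all 150 members these intervals, which cover counting error only, were apart in 104 and overlapped in 46. As the rule had set the order of the birds, these counts describe depth, and nothing more is read from them. Members rested on 29 to 733884 reads summed over the 6 libraries, with a median of 2277. In 17 members at least 1 library had fewer than 10 reads, and in 6 of these a library of a high bird did. The lowest high bird was at 2 or more times the FPKM of the highest low bird in 24 members, and the median of that ratio was 1.56. At the limit of the set, places 148, 149 and 150 had log2 differences of 1.0188, 1.0187 and 1.0182. The 3 loci just outside had 1.0171, 1.0160 and 1.0142, and the cap kept out 13 loci in all.

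Within the members, agreement among the 3 high birds was the commoner pattern. The same shares over all Ensembl loci were not computed, so whether the members are unusual in this was not tested. In 99 members (66.0%) the 3 high birds lay within 2-fold of one another. Black-eyelid bird 3 was at 2 or more times both other high birds in 16 members, black-eyelid bird 2 in 3 and light-yellow bird 1 in 3. Black-eyelid birds 2 and 3 were both at 2 or more times light-yellow bird 1 in 6 members, 3 members falling in more than 1 of these classes. The other such pairs were black-eyelid bird 3 with light-yellow bird 1 over black-eyelid bird 2, in 8 members, and black-eyelid bird 2 with light-yellow bird 1 over black-eyelid bird 3, in 0. The tightest member, at place 134, had 29.5, 27.4 and 28.6 FPKM in the high birds against 10.5, 13.3 and 17.1 FPKM in the low birds.

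The spread within the 3 high birds was a median of 0.698 on the log2 scale, and within the 3 low birds 0.551. It was wider in the high birds in 89 of 150 members. The rule acts on these spreads, and adding 1 to FPKM narrows those of low values, so nothing is read from that count. Of the high birds, black-eyelid bird 3 was highest in 72 members, light-yellow bird 1 in 45 and black-eyelid bird 2 in 33. Black-eyelid bird 2 was the lowest of them in 71. Among the low birds, light-yellow bird 3 was highest in 89 members, and black-eyelid bird 1 was lowest in 92. Neither these orders nor the spreads were computed over all Ensembl loci, so whether the members are unusual in them was not tested. Across the 150 members the Spearman correlation of FPKM between any pair of birds ran from 0.828 to 0.980. These correlations are across loci, which share libraries and a common range of abundance.

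By abundance, 58 members had a mean under 10 FPKM, 76 had 10 to 100 FPKM and 16 had 100 FPKM or more. These were 1.26%, 1.18% and 2.16% of the Ensembl loci in each class. The most abundant member, ENSGALG00000024272, is 742 bases long and stood at place 99. Light-yellow bird 1 had 23378 FPKM of it, black-eyelid bird 2 had 6708 FPKM and black-eyelid bird 3 had 7296 FPKM, against 4459.9 FPKM in black-eyelid bird 1, 5371 FPKM in light-yellow bird 2 and 4567 FPKM in light-yellow bird 3. Light-yellow bird 1 alone stood far from the rest, and the other high birds exceeded the low birds by less than 2-fold.

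The next 4 in abundance came at places 79, 125, 107 and 70. At place 79 the levels were 5373, 4452 and 3245 FPKM in black-eyelid birds 2 and 3 and light-yellow bird 1, against 1578, 2545 and 1698 FPKM in black-eyelid bird 1, light-yellow bird 2 and light-yellow bird 3. Those at place 125 were 3588, 2944 and 1501 FPKM in the high birds and 1403, 1209 and 1021 FPKM in the low birds, so that light-yellow bird 1 was barely above black-eyelid bird 1. The loci at places 107 and 70 are 445 and 458 bases long, and in both light-yellow bird 1 was highest, at 3121 and 2746 FPKM, with 1079 to 1100.1 FPKM and 865 to 1064 FPKM in the low birds.

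Together the members took a larger share of the high birds' libraries. Of the summed FPKM, black-eyelid bird 2 had 5.22% in the members, black-eyelid bird 3 had 4.74% and light-yellow bird 1 had 6.35%, against 2.25% in black-eyelid bird 1, 2.56% in light-yellow bird 2 and 2.32% in light-yellow bird 3. The 5 most abundant members made up 68.6% of the members' summed FPKM over the 6 libraries. Without them the shares were 1.82%, 1.92% and 1.56% in the high birds and 0.639%, 0.707% and 0.760% in the low birds. In recovered reads the 150 members took 3.86%, 3.66% and 4.24% of the library totals in the high birds and 1.45%, 1.76% and 1.51% in the low birds. By colour, the share of the summed FPKM averaged 4.07% ± 1.59 for black and 3.74% ± 2.26 for light-yellow eyelids (SD, n = 3 each). The rule set which birds had the high shares, with both colours on both sides, so the difference between the colours is given with no test.

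**Figure D3:**
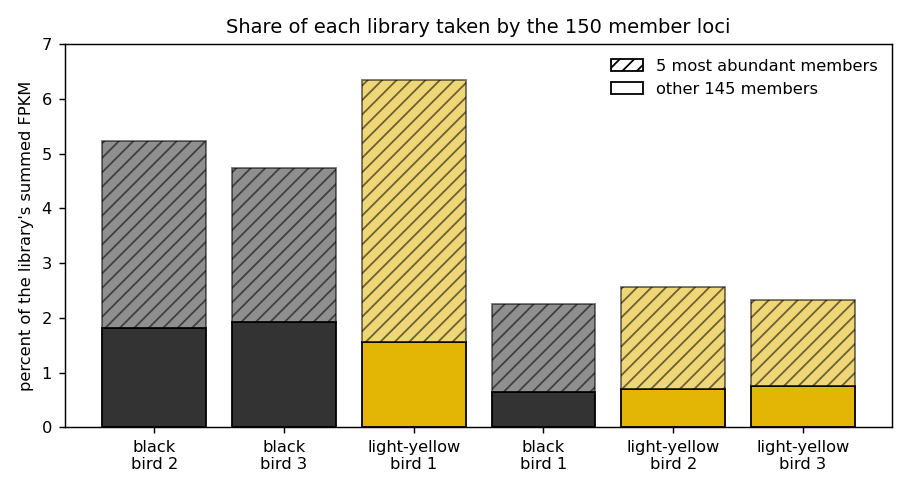
Bars give the percent of each library's summed FPKM held by the 150 members, 1 bar per bird, with the 5 most abundant members hatched and the other 145 plain. Dark bars are black and yellow bars light-yellow eyelids. The 3 high birds, on the left, reach 4.74% to 6.35%, and the 3 low birds 2.25% to 2.56%.

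The members were short loci, a property that the rule did not use. The median length, recovered from the steps between FPKM values, was 1173 bases over the 150 members and 2141 bases over the Ensembl loci at the same level, and 130 of the 150 (86.7%) were shorter than that second median. For the 148 loci of the rule turned round it was 2041 bases. Members made up 4.46% of the loci of up to 500 bases (14 of 314), 3.13% of those over 500 and up to 1000 bases (47 of 1504) and 1.73% of those over 1000 and up to 2000 bases (63 of 3651). Above that the share was 0.558% for loci up to 4000 bases (23 of 4124) and 0.137% for longer ones (3 of 2186). For the rule turned round, the share was between 1.01% and 1.60% in all 5 classes.

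Length also went with the difference between these birds over the whole table. Over all Ensembl loci the median log2 difference, high minus low birds, was 0.195, 0.081, -0.043, -0.16 and -0.21 from the shortest to the longest class. With the running median over length subtracted in each library, an alternative chosen after seeing the data, 152 loci met the rule and 108 of the 150 members were among them. A mean log2 difference of at least 1 was kept by 115 of the 150, and the median over the 150 was 1.17. All 150 stayed higher on average in the high birds. Members were chosen for a difference of at least 1, so nothing is read from that. Whether RNA quality differed between the birds was not tested, since the labels give no measure of it.

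**Figure D4:**
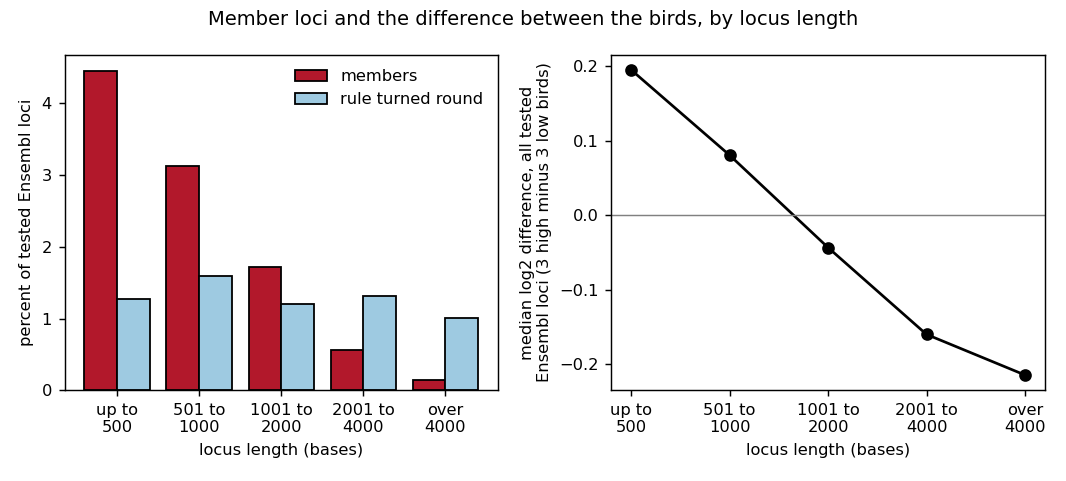
Left, the percent of the tested Ensembl loci of each length class that are members (red) or meet the rule turned round (blue). Right, the median log2(FPKM + 1) difference, 3 high minus 3 low birds, of all tested Ensembl loci in each class. The members' share falls from 4.46% to 0.137% with length, and the median difference from 0.195 to -0.21.

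Loci with identifiers of another kind, which the rule left out, met its other conditions more often in these libraries. Of 1473 such loci that reached 1 FPKM on average, 76 (5.16%) did, and 11 met them turned round. Their median length was 1047 bases, and that of the 76 was 546 bases. They were therefore also shorter than the Ensembl loci.

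No member was called between the eyelid colours. In the comparison of black with light-yellow eyelids, 0 of the 150 members passed the test (limma on log2(FPKM + 1), adjusted p under 0.05), against 4 of 13253 loci tested (0.0302%). The smallest adjusted p of a member was 0.999. At an unadjusted p under 0.05 there were 6 members, all higher in black eyelids, where 200 of all loci were higher (1.51%) and 144 lower (1.09%), and limma's voom on recovered reads gave 0 members past the threshold and 3 at that unadjusted p. Among all Ensembl loci the colours did not overlap in 508 with black higher (4.31%) and in 240 with black lower (2.04%). Among the members this was the case for 0, which the rule fixes, since each colour has birds on both of its sides. The same split widens the spread within each colour: the median standard error of the colour difference was 0.49 over the members and 0.24 over all 13253 loci. The lack of calls is thus largely set by how the members were chosen, and nothing is read from it.

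The size of the colour difference over the members is partly set by how they were chosen. Of the 3 high birds 2 had black eyelids, so any member carries some of its high-minus-low difference into the contrast of black minus light-yellow. With all high birds at 1 level and all low birds at another, that part is the difference divided by 3, a median of 0.394. The observed median log2 difference, black minus light-yellow, was 0.31, with 132 members higher (88.0%) and 18 lower in black eyelids. Over all 13253 loci the median was 0.065, and 63.0% were higher in black eyelids. The 95% confidence interval of a single member's difference reached a median of 1.12 to either side. Changes of about 2-fold in a member were thus within the error.

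With both sides fitted together, the members' median leaned toward light-yellow eyelids, but the sides taken singly did not lean the same way. The members' median was below 0 among the low birds, a contrast that rests on 1 black-eyelid bird. Among the high birds, where it rests on 1 light-yellow bird, it was above 0 but below that of all loci. With the side of the rule as a second term, the median log2 difference, black minus light-yellow, was -0.12. In this fit 55 members (36.7%) were higher and 95 lower in black eyelids. Over all loci the median was 0.098, and 67.1% were higher in black eyelids. None of the 150 passed in this fit either, where 1 of 13253 loci did (0.00755%). At an unadjusted limma p under 0.05 there were 5 members higher and 12 lower in black eyelids. Of all 13253 loci, 510 were higher (3.85%) and 313 lower (2.36%). The term and the members came from the same rule on these same values. The members' p-values in this fit are thus a description only, and nothing is read from these counts.

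Within each side the members' median lay below that of all loci, and whether the sides differed was not tested. Among the high birds, the mean of the 2 with black eyelids minus light-yellow bird 1 had a median of 0.076 over the members, with 79 above and 71 below 0, and of 0.19 over all 13253 loci. Light-yellow bird 1 was the highest of the 3 in 45 members, the lowest in 45 and between the others in 60. Among the low birds, black-eyelid bird 1 minus the mean of light-yellow birds 2 and 3 had a median of -0.23 over the members, with 110 below 0, and of -0.0021 over all loci.

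In the members with the smallest colour p, as in every member by the rule, birds of both colours lay on both sides. ENSGALG00000004772 averaged 71.9 ± 61.5 FPKM in black and 1.95 ± 2.90 FPKM in light-yellow eyelids (SD, n = 3 each), a log2 difference of 3.76 (SE 1.43, limma adjusted p = 0.999). Black-eyelid bird 1, at 1.14 FPKM, lay below light-yellow bird 1, at 5.29 FPKM. The smallest unadjusted p in this contrast, 0.0162, belonged to the locus at place 13, with 30.5, 27.9 and 10.9 FPKM in black-eyelid birds 2, 3 and 1 against 14.1, 5.32 and 2.64 FPKM in light-yellow birds 1, 2 and 3. Its log2 difference was 1.65 (SE 0.55). Among birds of the same side the smallest was at place 105, a log2 difference of -1.02 (SE 0.15, limma adjusted p = 0.321): black-eyelid birds 2 and 3 had 47.2 and 51.2 FPKM there, against 114 FPKM in light-yellow bird 1. The most abundant member, ENSGALG00000024272, had a log2 difference of -0.46 (SE 0.59), black minus light-yellow, which became 0.28 without light-yellow bird 1.

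Leaving out a bird changes how the sides are split between the colours, and with it the part of the colour difference that the rule builds in. That part, a median of 0.394 with all 6 birds, is 0.788 where the bird left out is light-yellow bird 1 or black-eyelid bird 1, and 0.197 for each of the others. The observed median log2 difference, black minus light-yellow, was 0.79 without black-eyelid bird 1 and 0.68 without light-yellow bird 1. It was 0.11 or 0.011 without black-eyelid bird 2 or 3, and 0.074 or 0.16 without light-yellow bird 2 or 3. Without black-eyelid bird 1, the only black-eyelid bird with low levels, 1 member passed, the locus at place 2, with a log2 difference of 3.97 (SE 0.44, limma adjusted p = 0.0452), among 9 of 13253 loci (0.0679%). At an unadjusted limma p under 0.05 there were 54 members in that fit, all higher in black eyelids, where 858 of all loci (6.47%) were. With the rule's difference built into the contrast, these counts follow from the choice of members and are no evidence of a colour difference.

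**Figure D5:**
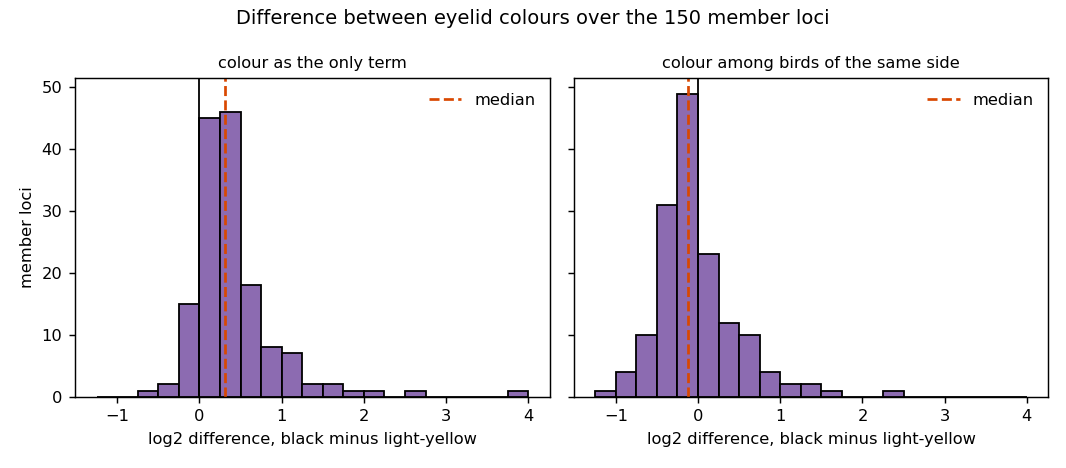
Histograms of the log2(FPKM + 1) difference, black minus light-yellow, over the 150 members, with colour as the only term (left) and among birds of the same side of the rule (right). The dashed line is the median, 0.31 on the left and -0.12 on the right, and the solid line is 0.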

How the data were processed

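The deposited table gives the authors' FPKM values, 1 column a library. TopHat, DESeq 1.18.0, Cufflinks 2.1.1 and HTSeq 0.6.1 are named, without their roles, per the submitters' processing notes. Genome build, annotation release and strand use: not given in the sources used here, so overlapping loci are uncertain. Columns were matched to birds by the sample description, and 0 were unmatched. Replicates are separate birds, per the labels.

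Of 17780 loci, 13253 reached a mean of 1 FPKM. The difference between black and light-yellow eyelids was tested on log2(FPKM + 1) by limma 3.58.1, run in R 4.3.3 (trend, two-sided, Benjamini-Hochberg over all 13253). Adding 1 understates changes of low loci. FPKM is relative, so abundant loci can shift others. Whole reads, library totals (17116783 to 20621850) and locus lengths were recovered from the FPKM steps, within 0.003 reads, for 99.8% of values above 0 and for all 150 members. Recovery (Python 3.11.15) and fit were tested on simulated data. These held planted colour differences and no split into high and low birds, so they do not measure how the fit performs on the members. Members, lists and tests were chosen with earlier results of these data known. With no gene names, no gene list was run. By the rule for unnamed loci, 2 identifiers are printed, those of the largest difference and the highest mean, and other loci shown were chosen by place, abundance or p, some after their values were seen. Alternatives changed the pseudocount, filter, scaling, threshold, trend, terms and libraries.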

Additional observations from a re-analysis of the deposited data

How the results depend on the processing

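In every alternative with all 6 birds, 0 members passed between the colours, with 3 to 17 at an unadjusted limma p under 0.05. Leaving out 1 bird gave 0 to 1 (the 1 without black-eyelid bird 1). The median colour difference over members, black minus light-yellow, was 0.011 to 0.79 with 1 bird left out, -0.12 with the side as a second term, and 0.25 to 0.33 otherwise. Against 163 loci, the rule held for 276 with a pseudocount of 0.1 and for 9 with a difference of at least 2. With 1 bird left out it held for 145 to 259, including 110 to 141 of the 150 members (153 loci without black-eyelid bird 1 and 145 without black-eyelid bird 3, more than 163 without any of the others). It held for 203 after median-of-ratios rescaling (149 of the members among them), 184 after quantile normalization (135), 207 with a pseudocount of 0.5, 130 among loci at a mean of 5 FPKM or more, 163 without a filter and 239 over all loci. The median difference, high minus low birds, stayed between 1.11 and 1.35 over all alternatives. No bird could reverse it, since the sides do not overlap in any member. The share of summed FPKM, black minus light-yellow, was 0.327 percentage points, 0.451 without the 5 most abundant members, 0.489 in reads and -0.384 to 1.63 with 1 bird left out. As a replicate block, the bird number gave 0 members past the threshold (5 at an unadjusted limma p under 0.05) and the same median of 0.31. Deviations from the colour mean correlated at -0.51, -0.059 and -0.23 between same-numbered birds, and nothing in the labels pairs them. Depth limits values that rest on few reads. In 10 of the 11 members led by black-eyelid bird 3, no other bird had more than 33 reads.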
